A study of Homo sapiens with 6 samples.

Results

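SOX10, SOX9, PAX3, TFAP2A, ZEB1, ZEB2, AXL, NGFR, EGFR and TEAD1 are 10 regulators and surface receptors by which the states of melanoma cells are told apart. They were taken as a named set, chosen with earlier results of these data known, and found by symbol among the 58243 Ensembl genes of the count files. All 10 were in the files, and all 10 passed the filter on low counts, which kept 23884 genes. The question asked of them was which state A375 cells show in nascent RNA and whether the genes differ in cells that express the phosphatase PRL3.

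Melanoma cells can pass between a melanocytic state, held by neural crest and lineage transcription factors around MITF, and a dedifferentiated, invasive state with low MITF. SOX10, PAX3 and TFAP2A act with MITF in the melanocyte lineage, and ZEB2 belongs to the same state, whereas its paralog ZEB1, SOX9, TEAD1 and the receptors AXL, EGFR and NGFR mark dedifferentiated or neural crest-like cells. Here SOX10, PAX3, TFAP2A and ZEB2 were treated as the 4 lineage genes and the remaining 6 as the dedifferentiated-state genes.

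A375, an established human melanoma cell line, had been stably transfected with an empty vector (EV) or with a plasmid for HA-tagged human PRL3, and both kinds of cells were kept in hygromycin B at 100 µg/ml. Newly made RNA was labelled in all cells with 500 µM 4-thiouridine (4sU) for 20 min, isolated and sequenced. There were 3 EV libraries, B1, B2 and B3, and 3 PRL3 libraries, B9, B10 and B11. Whether they came from separate cultures, from 1 clone or from a pool of clones is not given in the sources used here, so the p-values measure the spread between these libraries, which may be technical. Culture, labelling and library preparation cannot be told apart from the group.

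Reads counted on genes ranged from 47158709 to 57952035 in EV libraries and from 36532207 to 56511290 in PRL3 libraries. The share of uniquely aligned reads outside annotated exons was 33.3% ± 6.75 (SD, n = 3) in EV and 66.3% ± 3.18 (SD, n = 3) in PRL3 libraries. PTP4A3, the gene of PRL3, gave 161 to 279 normalized counts in EV and 22065 to 28767 in PRL3 libraries, which matches the labels. Of 5 melanoma markers (S100B, S100A1, MCAM, CSPG4 and PRAME) all 5 were detected, at a summed 47774 to 60773 normalized counts in EV and 28262 to 32683 in PRL3 libraries, and all 5 were lower in PRL3 cells. Keratinocyte markers summed to 3449 to 4382 in EV and 831 to 1174 in PRL3 libraries, with KRT14 and KRT10 lower and KRT1 at 0. The summed markers of endothelial cells (369 to 494 in EV, 458 to 566 in PRL3), leukocytes (74.3 to 141 and 139 to 207) and fibroblasts (357 to 501 and 304 to 329) were low, and 4 of 5 leukocyte markers did not pass the filter. The part of these differences in the results below was not tested.

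To compare genes with each other, reads were divided by the length of all merged exons of the gene and by the scaled library size, which gives a level in RPKM (reads per kilobase of exon per 1000000 reads). In EV cells the highest levels were those of a lineage and a dedifferentiated-state gene. SOX10 stood at 100.3 ± 21.8 (SD, n = 3) and AXL at 74.5 ± 4.03 (SD, n = 3), medians of 97.8 and 96.9 on a percentile scale over all protein-coding genes in the files. TEAD1 followed at 13.2 ± 1.42 and ZEB1 at 5.76 ± 1.39 (SD, n = 3). The other lineage factors were far below SOX10, with PAX3 at 3.36 ± 0.224, TFAP2A at 2.51 ± 0.437 and ZEB2 at 2.46 ± 0.431 (SD, n = 3). NGFR at 1.77 ± 0.216, SOX9 at 1.45 ± 0.403 and EGFR at 1.27 ± 0.150 (SD, n = 3) lay near the middle of the protein-coding genes, at median percentiles of 50.3, 47.3 and 46.2. TFAP2A and ZEB2, NGFR and SOX9, and SOX9 and EGFR had overlapping levels over the 3 EV libraries, and the other neighbours in this order did not overlap. In PRL3 libraries the median percentiles of SOX10 and AXL were 98.0 and 97.8, so neither was below its EV median.

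**Figure D1:**
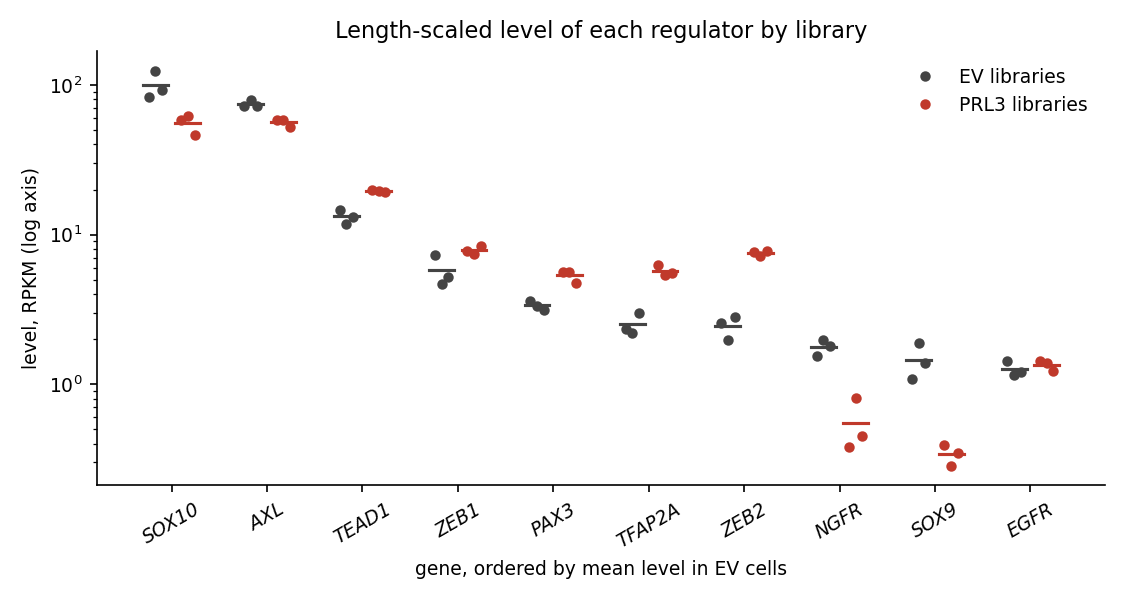
Level of each of the 10 genes in RPKM over merged exons (y axis, log scale) in the 3 EV libraries (grey) and the 3 PRL3 libraries (red), with a line at each group mean. SOX10 and AXL are the highest in both groups, the PRL3 points of NGFR and SOX9 lie below all their EV points, and those of PAX3, TFAP2A, ZEB2 and TEAD1 lie above theirs, by the scaling used throughout.

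MITF, the master regulator of the melanocyte lineage, had a level of 3.94 ± 0.429 (SD, n = 3) in EV cells, near that of PAX3. Pigment genes were singled out after their values were seen, and they differed among themselves. TYR gave 0, 0 and 1 reads in EV and 0 in each PRL3 library, TYRP1 gave 13, 20 and 0 reads and DCT 3, 8 and 1 in EV libraries. MLANA gave 0 in each EV library and 2, 0 and 0 in PRL3, and SLC24A5 gave 0 in all 6, where a count of 0 allows up to 3 reads in a library. PMEL, the melanosome matrix protein, gave 43, 26 and 61 reads in EV and 27, 32 and 56 in PRL3 libraries. Other genes of the melanocyte list were well expressed in EV cells. RAB38, which serves transport to the melanosome, was at 12.9 ± 2.97, GPNMB, a melanosome glycoprotein, at 4.91 ± 0.77 and the receptor gene ERBB3 at 20.1 ± 1.55 RPKM (SD, n = 3), while the transporter gene SLC45A2 gave 64, 50 and 121 reads. In EV cells high SOX10 thus stood beside high AXL, with the pigment enzyme genes TYR, TYRP1 and DCT at 20 reads or fewer.

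In PRL3 cells 4 of the 10 genes were lower (SOX10, SOX9, AXL and NGFR) and 4 were higher (PAX3, TFAP2A, ZEB2 and TEAD1) at an adjusted p of at most 0.05 in edgeR's quasi-likelihood test, while ZEB1 and EGFR did not pass. Of all 23884 genes tested, 22.7% were lower and 20.0% were higher. All 10 regulators are protein-coding, and of the tested protein-coding genes 31.6% were lower and 15.2% higher, so the count of lower regulators was near this share. The median log2 fold change (PRL3 minus EV) was 0.27 over the 10 genes and 0.11 over all genes tested, and -0.15 over tested protein-coding genes. Every PRL3 library was below every EV library for 4 genes and above for 5, against 26.6% and 29.7% of all genes tested. Of the 14443 tested protein-coding genes, 5307 were below in this way and 3201 above. The lineage genes split into 1 lower and 3 higher, and the dedifferentiated-state genes into 3 lower and 1 higher with 2 not called. These directions hold for a scaling between libraries by TMM, the trimmed mean method of edgeR, and the values under other scalings are given with the plot of fold changes. With 3 libraries against 3, an exact two-sided permutation test of 1 gene cannot go below p = 0.1, and that value was reached by all but EGFR.

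Among the lineage genes, SOX10 is the SOXE factor needed from the neural crest to the melanocyte. Its normalized counts, which are reads scaled to the mean library, were 18852, 28364 and 21173 in EV B1, B2 and B3 and 13254, 13992 and 10593 in PRL3 B9, B10 and B11. All PRL3 libraries lay below all EV libraries, and EV B2 was the highest. SOX10 (ENSG00000100146, GRCh38 chr22:37970686-37987422, minus strand) was 1.81-fold lower in PRL3 cells (log2 fold change -0.85, SE 0.18, adjusted p = 0.00213). The relative SOX8 was also lower, by a log2 fold change of -1.44 (SE 0.38, adjusted p = 0.00849), from 186 ± 84.3 to 68.5 ± 13.1 normalized counts (SD, n = 3).

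PAX3, a paired-box factor that acts upstream of MITF, gave 1342, 1255 and 1175 normalized counts in EV and 2110, 2107 and 1786 in PRL3 libraries. The groups did not overlap. PAX3 (ENSG00000135903, chr2:222199887-222298998, minus strand) was 1.59-fold higher in PRL3 cells (log2 fold change 0.67, SE 0.15, adjusted p = 0.00350).

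TFAP2A, the AP-2 factor that binds many melanocyte enhancers with MITF, gave 899, 852 and 1166 normalized counts in EV and 2432, 2072 and 2148 in PRL3 libraries. The lowest PRL3 library was well above the highest EV library. TFAP2A (ENSG00000137203, chr6:10393186-10419659, minus strand) was 2.28-fold higher (log2 fold change 1.19, SE 0.17, adjusted p = 0.000127). Its paralogs had higher levels and did not pass the test. TFAP2C was at 43.2 ± 1.63 and TFAP2B at 12.1 ± 0.696 RPKM in EV cells (SD, n = 3), with log2 fold changes of 0.22 (95% interval -0.081 to 0.51) and 0.13 (95% interval -0.22 to 0.48). Of the AP-2 inhibitors, KCTD1 was higher by 0.63 (SE 0.19, adjusted p = 0.0184) and KCTD15 was lower (log2 fold change -0.56, SE 0.17, adjusted p = 0.0146).

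ZEB2 and ZEB1 are zinc-finger repressors of E-cadherin that melanoma cells are known to exchange, ZEB2 in the melanocytic and ZEB1 in the dedifferentiated state. ZEB2 gave 3158, 2440 and 3476 normalized counts in EV and 9437, 8848 and 9603 in PRL3 libraries. The PRL3 libraries were close to each other and far above EV. ZEB2 (ENSG00000169554, chr2:144364364-144521057, minus strand) was 3.07-fold higher in PRL3 cells (log2 fold change 1.62, SE 0.16, adjusted p = 1.45e-05), the greatest rise among the 10 genes. ZEB1 (ENSG00000148516, chr10:31318495-31529814, plus strand) gave 2986, 1915 and 2134 in EV and 3156, 2998 and 3440 in PRL3 libraries. The groups did not overlap, EV B1 lay close to the PRL3 libraries, and the log2 fold change of 0.45 (SE 0.18, 95% interval 0.065 to 0.83) had an adjusted p of 0.0570 in edgeR's test. Without EV B1 it was 0.66, with an edgeR adjusted p of 0.00356.

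The promoters of the ZEB pair and of AXL are shown because both ZEB genes were at higher counts in all PRL3 libraries, unlike AXL. They come from RefSeq (GRCh38.p14) and run 5′ to 3′ from 250 bases before to 50 bases after a listed start. The ZEB2 window is chr2:144520070-144520369 on the minus strand, the ZEB1 window chr10:31318167-31318466 on the plus strand and the AXL window chr19:41218973-41219272 on the plus strand. Capitals mark every exact match, on either strand, to 8 motifs, namely the E-box CACGTG, the M-box TCATGTG bound by MITF, the E2-box CAGGTG bound by ZEB factors, the AP-1 site TGANTCA, the TEAD site GGAATG, the SOX sites ACAAAG and ACAATG, and the AP-2 site GCCNNNGGC.
ZEB2: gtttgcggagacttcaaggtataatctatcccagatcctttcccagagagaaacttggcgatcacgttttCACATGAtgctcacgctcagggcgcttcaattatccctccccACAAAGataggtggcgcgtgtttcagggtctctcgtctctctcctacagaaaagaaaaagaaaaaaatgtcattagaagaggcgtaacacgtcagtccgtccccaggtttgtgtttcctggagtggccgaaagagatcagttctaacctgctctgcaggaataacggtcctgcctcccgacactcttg
ZEB1: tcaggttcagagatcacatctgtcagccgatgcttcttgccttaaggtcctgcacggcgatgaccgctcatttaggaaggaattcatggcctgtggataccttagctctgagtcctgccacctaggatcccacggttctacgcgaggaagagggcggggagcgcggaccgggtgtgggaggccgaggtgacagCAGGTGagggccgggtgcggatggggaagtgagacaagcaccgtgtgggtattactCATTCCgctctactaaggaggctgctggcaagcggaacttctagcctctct
AXL: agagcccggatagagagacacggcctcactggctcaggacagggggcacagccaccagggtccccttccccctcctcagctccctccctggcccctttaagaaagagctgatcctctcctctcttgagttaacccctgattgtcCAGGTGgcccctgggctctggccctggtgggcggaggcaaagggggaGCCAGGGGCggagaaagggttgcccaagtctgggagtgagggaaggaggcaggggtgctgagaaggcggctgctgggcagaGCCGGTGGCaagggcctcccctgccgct
The ZEB2 window held 1 M-box, read on the opposite strand, and 1 ACAAAG site. The ZEB1 window held 1 E2-box and 1 TEAD site, the latter on the opposite strand, and the AXL window held 1 E2-box and 2 AP-2 sites. No marked matches overlapped. Of 27305 promoters in the table, 3.01% held the M-box, 16.1% ACAAAG, 20.6% the E2-box, 14.1% the TEAD site and 22.9% the AP-2 site. Promoters of 6 of the 10 genes were matched. PAX3 and TFAP2A held none of the motifs, EGFR held 3 AP-2 sites, and SOX10, SOX9, NGFR and TEAD1 were not matched. A match of letters is a description of the window and not a bound site.

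Among the dedifferentiated-state genes, SOX9, the SOXE factor that opposes SOX10 in melanoma cells, fell most. It gave 200, 348 and 258 normalized counts in EV and 73.1, 52.8 and 64.3 in PRL3 libraries. The groups were far apart. SOX9 (ENSG00000125398, chr17:72121020-72126416, plus strand) was 4.24-fold lower in PRL3 cells (log2 fold change -2.08, SE 0.31, adjusted p = 0.000182).

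NGFR, the low-affinity neurotrophin receptor and a marker of neural crest-like melanoma cells, gave 299.6, 383 and 354 normalized counts in EV and 74.1, 158 and 87.9 in PRL3 libraries. The groups did not overlap, and PRL3 B10 was the highest of the PRL3 libraries. NGFR (ENSG00000064300, chr17:49495293-49515008, plus strand) was 3.22-fold lower (log2 fold change -1.69, SE 0.31, adjusted p = 0.000774). Of 9 other neurotrophin genes 6 were tested, 2 were lower and 2 were higher, 1 with at least 10 counts in every library. The shares over tested protein-coding genes were 31.6% lower and 15.2% higher. Sortilin (SORT1), a co-receptor of NGFR, was lower at -0.87 (SE 0.17, adjusted p = 0.00102), and MAGED1, an adaptor that binds NGFR, at -1.27 (SE 0.15, adjusted p = 3.1e-05). The ligand gene BDNF was higher, at 1055 ± 96.9 normalized counts in EV and 2198 ± 87.8 in PRL3 cells (SD, n = 3), a log2 fold change of 1.06 (SE 0.15, adjusted p = 0.000133). NTRK3, a kinase receptor, gave 0, 1 and 0 reads in EV and 11, 35 and 16 in PRL3 libraries, and since it passed the filter on low counts only through the PRL3 libraries, its direction was fixed and no p is given.

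AXL, a receptor tyrosine kinase of the TAM family, gave 17484, 19143 and 17431 normalized counts in EV and 14176, 14006 and 12711 in PRL3 libraries. The groups did not overlap but lay close. AXL (ENSG00000167601, chr19:41219223-41261766, plus strand) was 1.32-fold lower (log2 fold change -0.40, SE 0.14, adjusted p = 0.0351). This call was lost when any of EV B2, PRL3 B9, PRL3 B10 or PRL3 B11 was left out, with edgeR adjusted p-values of 0.0981, 0.0769, 0.0777 and 0.171. Of the 4 other TAM genes 3 were lower and none was higher, with a median log2 fold change of -0.92. The shares over tested protein-coding genes were 31.6% lower and 15.2% higher. The 3 lower TAM genes were the receptor TYRO3 (-0.73, SE 0.17, adjusted p = 0.00429) and the ligands GAS6 (-1.12, SE 0.34, adjusted p = 0.0175) and PROS1 (-1.26, SE 0.26, adjusted p = 0.00161). The receptor MERTK did not pass (-0.32, 95% interval -1.27 to 0.62).

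EGFR, the epidermal growth factor receptor, gave 1080, 866 and 911 normalized counts in EV and 1077, 1037 and 918 in PRL3 libraries. The groups overlapped. EGFR (ENSG00000146648, chr7:55019017-55211628, plus strand) had a log2 fold change of 0.086 (95% interval -0.28 to 0.45, adjusted p = 0.716). Of 15 tested genes for other receptors, ligands and adaptors of this family 2 were lower and 2 were higher. The shares over tested protein-coding genes were 31.6% lower and 15.2% higher. ERBB2 was lower (-0.77, SE 0.16, adjusted p = 0.00143), as was the adaptor SHC1 (-1.28, SE 0.16, adjusted p = 4.06e-05). The ligand genes EGF (1.25, SE 0.24, adjusted p = 0.00112) and NRG1 (0.95, SE 0.18, adjusted p = 0.000769) were higher. TGFA, the ligand gene of high level at 65.6 ± 1.94 RPKM in EV cells (SD, n = 3), had a log2 fold change of 0.093 (95% interval -0.21 to 0.40), and the inhibitor ERRFI1 one of 0.15 (95% interval -0.16 to 0.46).

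TEAD1, a DNA-binding partner of the Hippo effectors YAP1 and WWTR1, gave 7395, 5968 and 6607 normalized counts in EV and 9940, 9908 and 9767 in PRL3 libraries. The PRL3 libraries differed little from each other and were all above EV. TEAD1 (ENSG00000187079, chr11:12674421-12944737, plus strand) was 1.48-fold higher (log2 fold change 0.57, SE 0.14, adjusted p = 0.00631). Its paralogs TEAD2 (-1.15, SE 0.20, adjusted p = 0.000526) and TEAD3 (-0.70, SE 0.19, adjusted p = 0.00978) were lower, and TEAD4 was at -0.088 (95% interval -0.41 to 0.23). YAP1 at -0.043 (95% interval -0.34 to 0.25) and WWTR1 at 0.081 (95% interval -0.25 to 0.41) did not pass. Of 21 tested TEAD and Hippo genes 3 were lower and 10 were higher, against 31.6% and 15.2% of tested protein-coding genes. The median log2 fold change of the 21 was 0.12. Among the higher were the target genes CCN1 (1.15, SE 0.20, adjusted p = 0.000536) and AMOTL2 (0.92, SE 0.17, adjusted p = 0.000718) and the cofactor VGLL3 (1.02, SE 0.26, adjusted p = 0.00655). The inhibitors VGLL4 (0.42), LATS1 (0.47) and LATS2 (0.55) of TEAD or YAP1 activity were higher too. With all uniquely aligned reads as library size, 8 of the 21 genes were lower and 1 was higher.

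**Figure D2:**
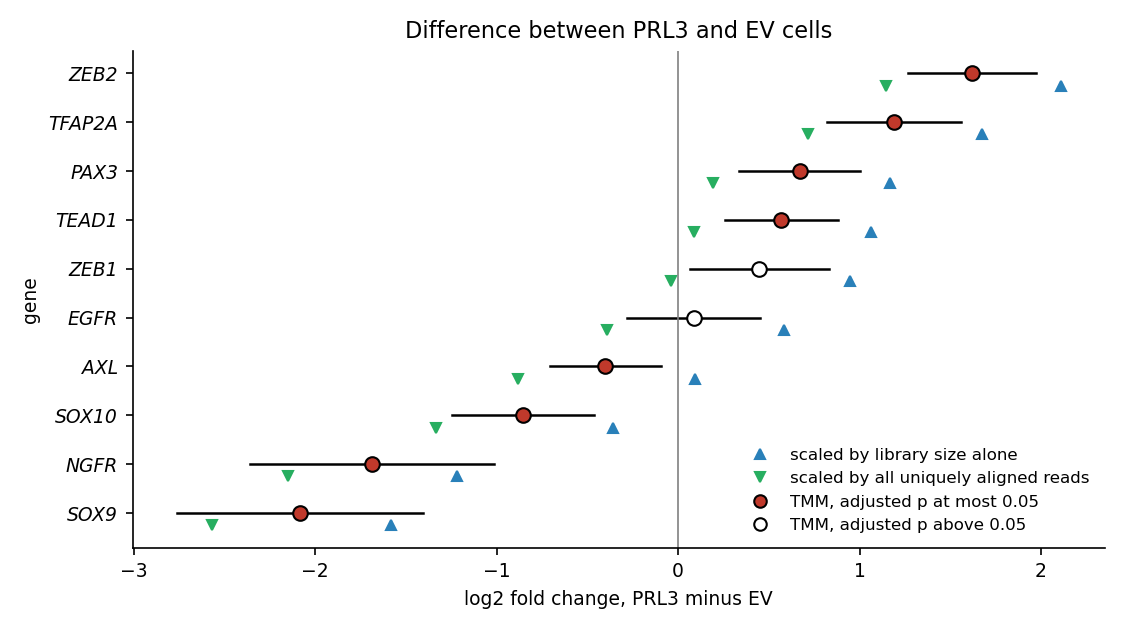
Log2 fold change, PRL3 minus EV, of the 10 genes (x axis). Circles are the TMM-scaled edgeR values with 95% intervals (red, adjusted p at most 0.05; white, above it), and triangles are the values when libraries were scaled by the reads on genes alone (blue) or by all uniquely aligned reads (green). SOX10, SOX9, NGFR, PAX3, TFAP2A, ZEB2 and TEAD1 stay on their side of 0 under both. Of these, SOX10 loses its call under the first and PAX3 and TEAD1 under the second. AXL crosses 0 under the first, and ZEB1 and EGFR cross it under the second.

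How libraries are scaled sets the origin of these fold changes. Scaling by the reads on genes alone moved the median over all genes by 0.49 and gave 3078 lower and 9514 higher genes, 2 and 6 of them among the 10. Scaling by all uniquely aligned reads moved it by -0.48 and gave 8473 lower and 1952 higher genes, 4 and 2 among the 10. Under the first, SOX10 was at -0.36 (edgeR adjusted p = 0.0876) and AXL at 0.093, while EGFR reached 0.58 (edgeR adjusted p = 0.0146). Under the second, PAX3 was at 0.19 and TEAD1 at 0.090, neither past the threshold, and ZEB1 was at -0.036. SOX9, NGFR, TFAP2A and ZEB2 kept direction and call under all 16 alternative settings.

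Ratios of levels within a library do not depend on this scaling and were taken without a test. They do not remove the trend with gene length described below, in which SOX9 and SOX10, and AXL and MITF, fall in different classes. The part of that trend in the ratios was not tested. The log2 ratio of SOX9 to SOX10 was -6.26, -6.05 and -6.06 in EV and -7.21, -7.75 and -7.07 in PRL3 libraries. The balance was therefore further toward SOX10 in each PRL3 library, although both genes were lower. The log2 ratio of ZEB1 to ZEB2 was 1.52, 1.25 and 0.89 in EV and 0.016, 0.035 and 0.12 in PRL3 libraries. Per kilobase of merged exons, ZEB1 exceeded ZEB2 in EV cells and the levels were about equal in PRL3 cells. Per kilobase of the canonical transcript, the ratio was 0.56, 0.29 and -0.062 in EV and -0.94, -0.92 and -0.84 in PRL3 libraries, so that ZEB2 exceeded ZEB1 in PRL3 cells. By either length the ratio was lower in each PRL3 library. The log2 ratio of AXL to MITF was 4.08, 4.52 and 4.14 in EV and 3.58, 3.50 and 3.34 in PRL3 libraries, lower in each PRL3 library. The balance of AXL and SOX10, which share a class of gene length, moved toward AXL instead. Levels of AXL and SOX10 were 72.3 and 82.9, 79.2 and 125, and 72.1 and 93.1 RPKM in EV B1, B2 and B3. In PRL3 B9, B10 and B11 they were 58.6 and 58.3, 57.9 and 61.6, and 52.6 and 46.6. AXL was below SOX10 in each EV library and above it in PRL3 B9 and B11. MITF itself went from 1378 ± 149.9 to 1773 ± 51.3 normalized counts (SD, n = 3), a log2 fold change of 0.36 (SE 0.16, adjusted p = 0.0738), and its sign turned to -0.11 with all uniquely aligned reads as library size.

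Wider gene lists of both states were mixed in direction. Of all tested protein-coding genes, which stand beside these counts, 31.6% were lower and 15.2% higher. Of 16 tested melanocyte differentiation genes 3 were lower and 1 was higher (median log2 fold change -0.37). APOE was at -2.16 (SE 0.38, adjusted p = 0.000524), the endothelin receptor EDNRB at -0.83 (SE 0.21, adjusted p = 0.00660) and CDK2, a kinase gene known as an MITF target, at -0.58 (SE 0.15, adjusted p = 0.00712). BCL2A1, an anti-apoptotic gene known as an MITF target, was the higher one, with 0, 0 and 1 reads in EV and 33, 30 and 29 in PRL3 libraries. It too passed the filter only through the PRL3 libraries, which fixed its direction. Of 16 neural crest and Schwann precursor genes 6 were lower and 3 were higher (median -0.63). The intermediate filament gene NES (-1.70, SE 0.18, adjusted p = 1.62e-05) and the homeobox gene MSX1 (-0.87, SE 0.19, adjusted p = 0.00223) fell. CDH19 (1.21, SE 0.27, adjusted p = 0.00317), SOX6 (0.76, SE 0.16, adjusted p = 0.00177) and SOX5 (0.64, SE 0.15, adjusted p = 0.00479) rose. With library size alone the count of this list was 3 lower and 6 higher.

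Of 27 tested invasive or dedifferentiated genes 6 were lower and 8 were higher (median 0.16). The chemokine gene CXCL8 (2.03, SE 0.19, adjusted p = 9.82e-06), CCN1 and THBS1, a matrix glycoprotein gene (0.81, SE 0.16, adjusted p = 0.00134), rose. TGFBI (-1.10, SE 0.15, adjusted p = 6.9e-05), VIM, which encodes vimentin (-0.91, SE 0.16, adjusted p = 0.000557), and the protease gene MMP2 (-0.90, SE 0.17, adjusted p = 0.000791) fell. Of 7 tested partners and fellow factors of the ZEB genes in the epithelial-mesenchymal transition 1 was lower, the co-repressor CTBP1 (-0.70, SE 0.18, adjusted p = 0.00809), and none was higher (median -0.46). SNAI1 was at -0.089 (95% interval -0.47 to 0.30). Of 6 tested SOXE, PAX and AP-2 relatives 2 were lower and 1 was higher (median -0.0067). Over all lists 28 of 113 tested genes (24.8%) were lower and 25 (22.1%) were higher. Of the 25, 2 passed the filter only through the PRL3 libraries, which fixed their direction, and 23 passed it in both groups. Of all genes tested 22.7% were lower and 20.0% higher, and of tested protein-coding genes 31.6% and 15.2%. The counts over all lists became 11 and 49 with library size alone and 52 and 7 with all uniquely aligned reads. With library size alone, SOX8, KCTD15, SORT1, TYRO3, GAS6, ERBB2, TEAD3, EDNRB, CDK2, MSX1 and CTBP1 lost their lower call. With all uniquely aligned reads, KCTD1, AMOTL2, VGLL3, VGLL4, LATS1, LATS2, CDH19, SOX5, SOX6 and THBS1 lost their higher call. The other calls named from the lists held under both scalings. In bulk RNA, fewer cells of a state and less RNA per cell cannot be told apart.

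**Figure D3:**
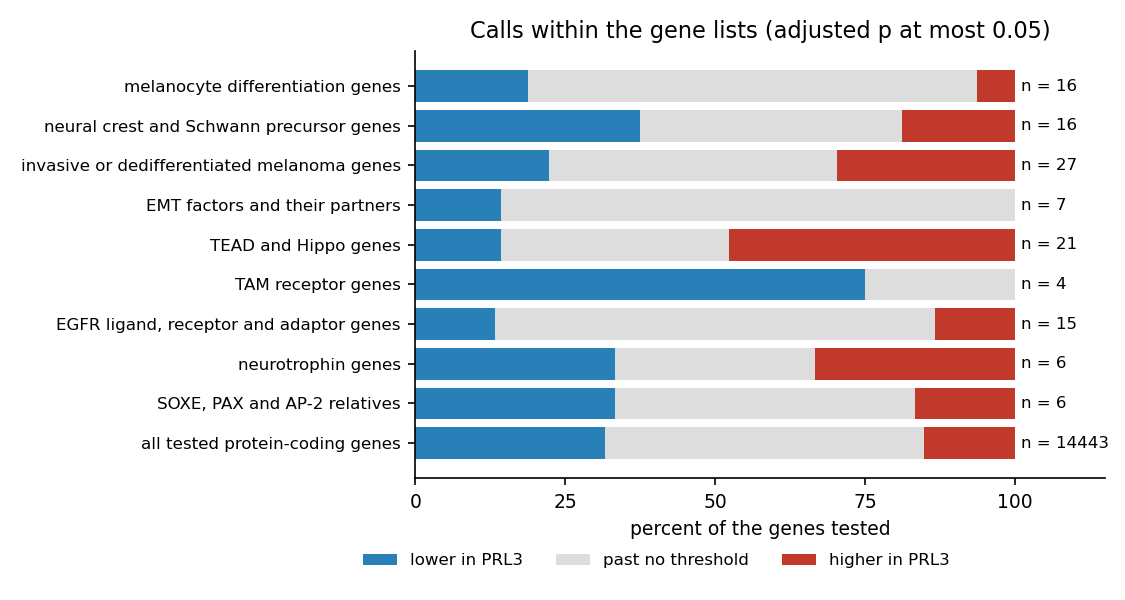
Percent of the tested genes of each list (x axis) that were lower (blue), higher (red) or past no threshold (grey) in PRL3 cells, with the number tested at the right and all tested protein-coding genes in the last bar. BCL2A1 in the melanocyte list and NTRK3 in the neurotrophin list, both counted as higher, passed the filter only through the PRL3 libraries. With TMM scaling the TEAD and Hippo list has 10 higher and 3 lower genes of 21, which turns to 1 and 8 with all uniquely aligned reads, and the TAM list has 3 lower genes of 4, of which library size alone leaves 1.

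Other genes annotated at the same loci were described as well. There were 22 such genes, 18 on the opposite strand and 4 noncoding genes inside a regulator on its own strand, and 10 passed the filter. None of the 10 was lower and 6 were higher. Nearly all are noncoding, and of the tested genes that are not protein-coding 9.06% were lower and 27.5% higher. Of the 6, ZEB2-AS1 passed the filter only through the PRL3 libraries, which fixed its direction. The gene inside TEAD1 was over the minimum count of the filter in 2 EV and 3 PRL3 libraries. Of the 7 neighbours over this minimum in every library of both groups 4 were higher. The counts were strand-specific, and no exon of the 10 regulators was shared with another annotated gene on the same strand. Reads on a gene inside a regulator on the same strand cannot be told apart from reads on the regulator's own introns. The share of reads outside exons was 33.3% in EV and 66.3% in PRL3 libraries, and its part here was not tested. Among the genes inside a regulator, SPTLC1P1, a pseudogene inside ZEB1 (chr10:31360955-31361215), was higher by 1.70 (SE 0.43, adjusted p = 0.00619). A gene of unverified type inside ZEB2 (ENSG00000279166, chr2:144494265-144496878) was higher by 1.79 (SE 0.24, adjusted p = 7.2e-05). A noncoding gene inside TEAD1 (ENSG00000255067, chr11:12848795-12849433) gave 21, 7 and 22 reads in EV and 173, 123 and 98 in PRL3 libraries.

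On the opposite strand, ZEB2-AS1 gave 0, 3 and 1 reads in EV and 25, 14 and 23 in PRL3 libraries, and its annotation (chr2:144517978-144521477) covers the ZEB2 promoter window shown above. ZEB1-AS1 was higher by 0.71 (SE 0.24, adjusted p = 0.0290), a call lost with all uniquely aligned reads. A short gene antisense to AXL (ENSG00000269652, chr19:41221426-41222051) was higher by 0.93 (SE 0.30, adjusted p = 0.0215), opposite in sign to AXL except with library size alone. The call of this antisense gene was also lost with all uniquely aligned reads. SOX9-AS1 was at 0.77 (95% interval -0.22 to 1.76) and TFAP2A-AS1 at -0.42 (95% interval -1.27 to 0.42), neither past the threshold. POLR2F, the protein-coding gene whose annotated span holds SOX10, was at -0.030 (95% interval -0.54 to 0.48), and CCDC140 beside PAX3 was at 0.32 (95% interval -1.77 to 2.42). The difference between a regulator and its neighbour was not itself tested.

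**Figure D4:**
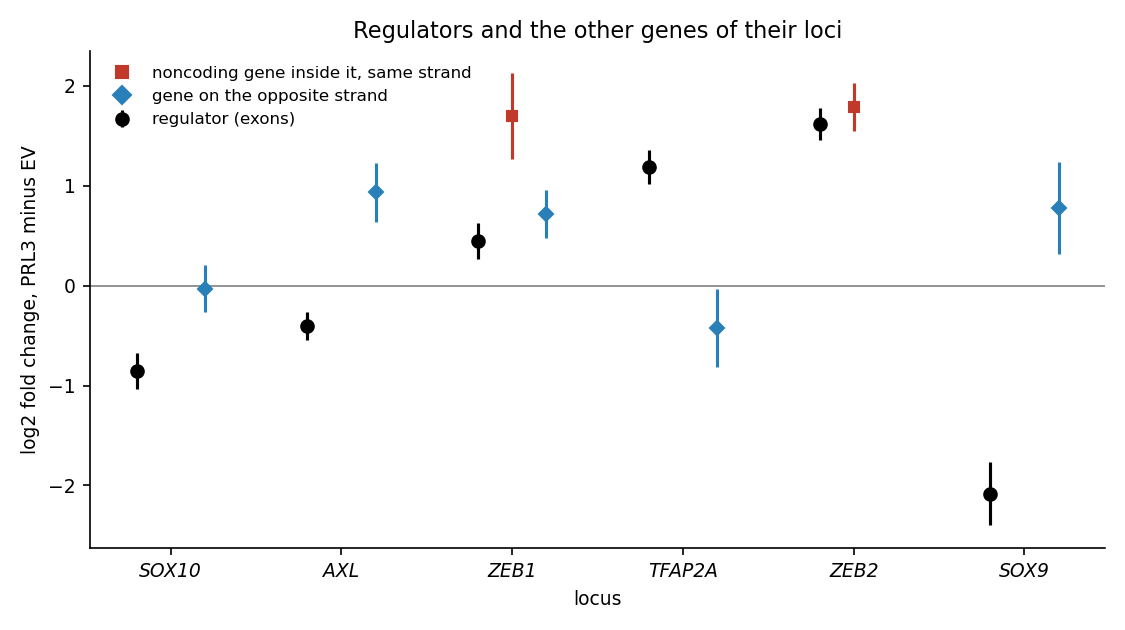
Log2 fold change, PRL3 minus EV, with standard error (y axis) of 6 regulators (black) and of the genes at their loci that passed the filter on low counts in both groups, either inside the regulator on its own strand (red) or on the opposite strand (blue). The genes inside ZEB1 and ZEB2 lie at 1.70 and 1.79, and the gene antisense to AXL lies at 0.93, on the other side of 0 from AXL except with library size alone, where AXL is at 0.093. Reads on the genes inside ZEB1 and ZEB2 cannot be told apart from reads on the introns of ZEB1 and ZEB2.

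The 10 genes also differ in length, a property described after the values were seen. Among tested protein-coding genes under 10 kb, 48.4% were lower and 8.84% higher in PRL3 cells (median log2 fold change -0.64), and SOX9, 5.40 kb long, is in this class. From 10 to 50 kb, the class of SOX10, TFAP2A, AXL and NGFR, 37.1% were lower and 14.2% higher (median -0.26). From 50 to 150 kb, the class of PAX3, the shares were 21.2% and 16.4% (median -0.015). Over 150 kb, the class of ZEB1, ZEB2, EGFR and TEAD1, they were 9.69% and 25.4% (median 0.22). The 4 regulators that fell are all under 50 kb, and TFAP2A, at 26.5 kb, is the one of that size that rose. The share of reads outside exons and gene length moved with the group, and their part in the fold changes of the 10 genes was not tested.

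**Figure D5:**
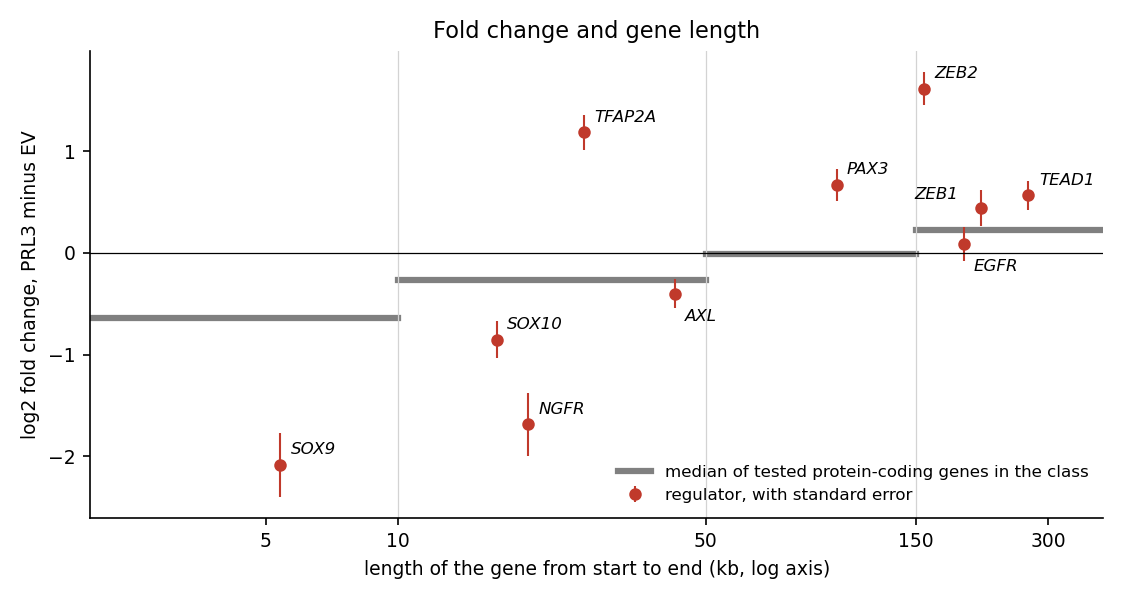
Log2 fold change, PRL3 minus EV, with standard error (y axis) against the length of the gene from start to end (x axis, kb, log scale) for the 10 regulators (red). Grey lines mark the median of all tested protein-coding genes in 4 classes of length, at -0.64, -0.26, -0.015 and 0.22.

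The tested protein-coding gene with the most similar profile was found for each regulator as the smallest root mean square difference of centred log2 normalized counts over the 6 libraries, among 14442 genes. For PAX3 this was TGFBR2 (difference 0.019), for ZEB1 TATDN1 (0.026), for AXL POFUT1 (0.027), for TEAD1 MTO1 (0.028), for ZEB2 PLCB4 (0.029) and for EGFR YTHDF2 (0.031). The match was looser for TFAP2A with ZNF43 (0.042), SOX10 with CLIP2 (0.054), NGFR with FBXL6 (0.082) and SOX9 with LCN2 (0.12).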

How the data were processed

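Nascent RNA was measured in 6 libraries of A375 cells. The authors aligned reads to GRCh38 with STAR 2.5.1b and deposited raw counts per Ensembl gene from HTSeq 0.6.1 with its reverse-strand setting, without normalization (per the labels, FastQC 0.11.3 was also used). The rows for reads outside exons, ambiguous or multiply aligned reads were kept out of the tests. Symbols, lengths and coordinates came from GENCODE 44 (57532 of 58243 identifiers matched), a later release than that used for counting. Groups came from the sample titles.

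PRL3 was compared with EV in R 4.3.3 with edgeR 4.0.16 (TMM scaling, filterByExpr, quasi-likelihood test, Benjamini-Hochberg adjustment over 23884 genes, threshold 0.05), a procedure tested on simulated data. Intervals are 95%. Alternatives used DESeq2 1.42.0, limma 3.58.1, other scalings and filters, a threshold of 0.01 and single libraries left out. No 2 libraries were alike within counting noise (chi-square averaged over genes, 22.6 to 403), so no library was a repeat deposit of another and all 6 entered the fits. This does not show that they are independent cultures. Floors cover counting error only.

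The 10 regulators and the gene lists were chosen with earlier results of these data known. All 10 were described. From each list at most the 3 lower and 3 higher genes of smallest p were named, with relatives, ligands, co-receptors and inhibitors of the regulators, MITF, PTP4A3, tested neighbours and the nearest profiles. A gene that this rule names is not reported here.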

Additional observations from a re-analysis of the deposited data

Results flagged for a closer look

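The share of uniquely aligned reads outside annotated exons was not itself a term in any comparison of genes. Such reads did enter the library size in the setting with all uniquely aligned reads. The mean share was 66.3% in the PRL3 libraries, against 33.3% in the EV libraries, and no library of one group reached the range of the other (28.7% to 41.1% in EV, 62.8% to 69.1% in PRL3). No test was made of its part in the fold changes.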

How the results depend on the processing

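No paired analysis was possible because the EV libraries (B1 to B3) and the PRL3 libraries (B9 to B11) share no replicate number. SOX9, TFAP2A, ZEB2 and NGFR kept direction and call in all 16 alternative settings, and SOX10, PAX3 and TEAD1 in 15 of them. The median over all genes moved by 0.49 with library size alone, -0.48 with all uniquely aligned reads, 0.18 with the upper-quartile method and 0.15 with the filter of at least 1 count in any library. With library size alone, 2 regulators were lower, 11 genes of the lists were lower and 49 higher, SOX10 was at -0.36 and did not pass, AXL reversed to 0.093 without a call, and ZEB1 at 0.95 and EGFR at 0.58 passed. With all uniquely aligned reads, 2 regulators were higher, 52 genes of the lists were lower and 7 higher, PAX3 at 0.19 and TEAD1 at 0.090 did not pass, and ZEB1 at -0.036 and EGFR at -0.39 reversed without a call. ZEB1 passed at 0.64 with upper-quartile scaling, 0.47 with limma-voom, 0.48 with at least 1 count in any library, 0.49 with at least 10 counts in every library and 0.63 with protein-coding genes only. AXL did not pass at -0.22 with upper-quartile scaling, -0.37 with at least 1 count in any library, -0.22 with protein-coding genes only, nor, at -0.40, at a threshold of 0.01, where 3 neighbours were higher. The cause of these changes was not tested.

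Over the 6 fits that omit 1 library, the log2 fold change of ZEB1 ranged from 0.34 to 0.66, passing without EV B1, and that of AXL from -0.44 to -0.34. The number of neighbours higher ranged from 3 to 6, with 3 left without PRL3 B9 and without PRL3 B11, and was 4 with at least 10 counts in every library. The neighbours have no value among protein-coding genes only, where they were not fitted. With the length of the canonical transcript in place of all merged exons, EV levels were 168 for SOX10, 81.1 for AXL, 15.0 for TEAD1, 8.39 for ZEB1, 7.95 for PAX3, 6.93 for ZEB2, 6.57 for TFAP2A, 2.15 for NGFR and 2.04 for EGFR RPKM, and the EV log2 ratios were -6.87 for SOX9 to SOX10, 0.26 for ZEB1 to ZEB2 and 3.74 for AXL to MITF, with the ZEB1 to ZEB2 ratio at -0.90 in PRL3 cells. Of 288 list counts, 233 stayed within 1.5 times their value, and of the 55 others 15 came from library size alone and 9 from all uniquely aligned reads. Exact permutation of 3 against 3 libraries cannot reach the threshold, and genes of few reads, such as TYR and MLANA, were not tested at this depth.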
